A study of Sus scrofa with 6 samples.

Results

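The genes described here are the receptor TLR4, the adaptors MYD88 and TIRAP, and the inhibitors NFKBIA, NFKBIB and NFKBIZ of Toll-like receptor signalling. They were taken by symbol from the gene column of the deposited table, which matched 6 of 6 names among 10915 genes with values, and the reference table gives each identifier the same symbol. RNA was sequenced from primary cultures of porcine endometrial epithelium, the cell layer lining the uterus, isolated from slaughterhouse uteri and used at passage 3. In the exosome group the wells received 10 µg of exosomes, small vesicles precipitated from the sperm-rich fraction of boar seminal fluid, for 48 h, and the control group had no exosome treatment. Each group held 3 libraries. All values are FPKM, fragments scaled by transcript length and by library size, a level that can be compared between genes. Whether separate animals or wells gave the libraries of a group is not stated in the labels, so p-values reflect the scatter of these libraries alone, and that scatter may be technical.

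Toll-like receptors sense microbial products and products of damaged tissue at the surface or in the endosomes of a cell. TLR4 binds bacterial lipopolysaccharide together with the secreted partner MD-2 (LY96) and the co-receptor CD14. Its cytoplasmic TIR domain recruits TIRAP, which bridges the receptor to MYD88, and MYD88 passes the signal through IRAK kinases, TRAF6 and TAK1 to the IKK complex. IKK marks the inhibitors NFKBIA and NFKBIB for destruction, which lets the transcription factor NF-kB enter the nucleus. NFKBIZ is an atypical, nuclear member of the same inhibitor family that modulates NF-kB at selected promoters. NFKBIA and NFKBIZ are themselves induced by NF-kB in many cell types. In the uterus this pathway is known for the response of the epithelium to bacteria and to seminal fluid.

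Libraries had summed FPKM from 721273 to 732922 in control and from 690258 to 711250 in the exosome group, and their depth in reads is unknown. Of 11 epithelial markers 9 were analysed, and their summed level was 13591 to 14022 FPKM in control and 11634 to 12814 in exosome libraries. Of these 9 markers, 6 (66.7%) were lower in the exosome group at an unadjusted p under 0.05 in limma, beside 7.5% of all genes tested. Of 12 immune cell markers only CD68, LYZ and LAPTM5 were among the genes analysed here, and their sum was 10.9 to 13.3 FPKM in control and 10.1 to 11.5 in exosome libraries. LAPTM5 was lower without overlap (log2 change -0.28, unadjusted p = 0.0234 in limma), and LYZ was at 0.30 with overlapping groups. The groups did not overlap for 18.7% of all genes tested. LAPTM5 missed the unadjusted threshold without control replicate 1 or 2, without exosome replicate 3, and without replicate 2 or 3 of both groups. Of 8 fibroblast markers 3 were analysed, and their sum was 51.2 to 88.3 FPKM in control and 46.1 to 72.4 in exosome libraries, with COL1A1 between 0.887 and 30.0 FPKM. Of 6 endothelial markers only KDR was analysed, at 1.26 to 1.96 FPKM in control and 0.968 to 1.16 in exosome libraries (unadjusted p = 0.0383 in limma). Among fits with libraries left out, KDR stayed under that threshold only without control replicate 1 or exosome replicate 2. No marker passed after adjustment with all libraries. Without exosome replicate 2, 3 of the 9 epithelial markers did, when 297 of all genes tested passed. The unadjusted count of 6 epithelial markers was 3 without replicate 1 of both groups (33.3%, beside 6% of all genes in either direction). It was 4 (44.4%) without control replicate 1 or exosome replicate 1 (beside 9.97% and 7.39%) and with quantile normalization (beside 12.5%). It was 7 (77.8%) without exosome replicate 3 (beside 12%). The part of these marker levels in the results that follow was not tested.

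NFKBIA was the most abundant of the genes described, with a mean over the 6 libraries of 99.4 FPKM, at the 90.1 percentile of all genes in the table. NFKBIB followed at 57.5 FPKM (83.0 percentile) and MYD88 at 48.7 FPKM (80.1 percentile). In each group the lowest NFKBIB library lay above the highest MYD88 library. NFKBIZ and TIRAP were at 8.10 and 7.59 FPKM (32.5 and 31.0 percentile), with TIRAP above NFKBIZ in control libraries (lowest TIRAP 7.57, highest NFKBIZ 7.53) and overlapping levels in exosome libraries. TLR4 was the lowest at 2.56 FPKM, at the 10.5 percentile. The receptor was thus far below its adaptor, with MYD88 to TLR4 ratios of 18.4 ± 2.34 in control and 20.2 ± 2.22 in exosome libraries (n = 3 per group, SD; two-sided exact permutation p = 0.5).

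The exosome and control groups were compared to ask whether transcripts of this pathway differ once the cells have met seminal exosomes. NFKBIZ had the smallest p of the set, at 7.33 ± 0.180 FPKM in control and 8.87 ± 1.16 after exosomes (SD over 3 libraries a group), and MYD88 was slightly lower in exosome libraries, at 47.2 ± 2.12 against 50.1 ± 0.617. None of the 6 genes passed an adjusted p of 0.05 in limma, as was true of all 10846 genes tested (0% called), and the adjusted p of the 6 ran from 0.370 to 0.584. At an unadjusted p under 0.05 in limma, 1 of 6 was higher (NFKBIZ) and 0 were lower, where 5.06% of all genes tested were higher, 7.5% were lower and 12.6% were either. The groups did not overlap for 2 of 6 (NFKBIZ and MYD88), against 18.7% of all genes tested. For NFKBIZ this rested on a near tie, with exosome replicate 2 at 7.541 FPKM and control replicate 1 at 7.535. The first count is near the background share, and 1 gene fewer would bring the second below it. The first count was 0 without exosome replicate 1 (beside 7.39% of all genes tested) or without control replicate 1, 2 or 3 (beside 9.97%, 7.4% and 8.2%). It was 2 (TIRAP lower and NFKBIA higher) without exosome replicate 3 (beside 12%). NFKBIB (higher) was the 1 gene counted when replicate 1 was dropped from each group (beside 6% of all genes tested), and TIRAP (lower) when replicate 3 was (beside 8.17%). In such bulk cultures, fewer cells of a type and less RNA per cell cannot be told apart.

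**Figure D1:**
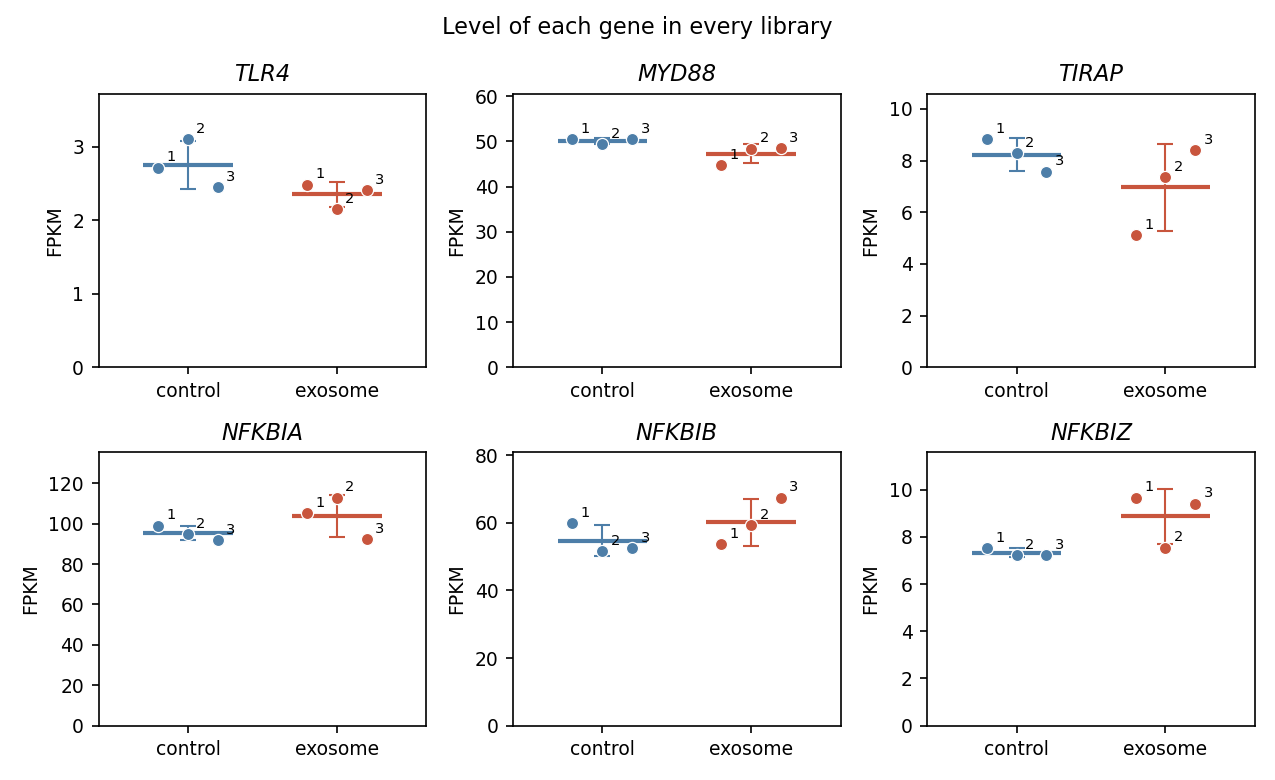
Level of each described gene in FPKM (y axis, linear from 0) in the 3 control (blue) and 3 exosome libraries (red), with the replicate number beside each point, the group mean as a bar and the SD as an error bar. NFKBIZ separates exosome replicates 1 and 3 (9.66 and 9.41 FPKM) from the other 4 libraries (7.22 to 7.54). TIRAP is lowest in exosome replicate 1 (5.10), and exosome replicate 2 (7.36) is also below every control library.

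The receptor TLR4 (ENSSSCG00000005503, protein-coding, Sscrofa11.1 chr1:258044610-258054641 in the RefSeq gene table) was at 2.72, 3.11 and 2.45 FPKM in control replicates 1, 2 and 3 and at 2.49, 2.16 and 2.42 in exosome replicates 1, 2 and 3. The exosome libraries sat at the low end, but exosome replicate 1 lay above control replicate 3, so the groups overlapped. The log2 change of FPKM + 1 was -0.16 (SE 0.10, 95% interval -0.39 to 0.07; adjusted p = 0.532). It was -0.10 without control replicate 2 and -0.05 when replicate 2 was dropped from each group. LY96, which holds lipopolysaccharide for TLR4, was at 13.7, 11.6 and 11.3 FPKM in control and 12.3, 12.1 and 14.5 in exosome libraries. The ratio of LY96 to TLR4 was 4.47 ± 0.665 in control and 5.51 ± 0.531 in exosome libraries (SD, n = 3; two-sided exact permutation p = 0.2), with overlapping groups.

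MYD88 (ENSSSCG00000011251, chr13:22976951-22979568), the adaptor shared by most Toll-like receptors and the interleukin-1 receptor family, was at 50.5, 49.4 and 50.5 FPKM in control and 44.8, 48.4 and 48.5 in exosome libraries. All 3 exosome libraries lay below all 3 control libraries, by a small margin for replicates 2 and 3. The log2 change was -0.09 (SE 0.05, 95% interval -0.20 to 0.03; adjusted p = 0.529), and a two-sided exact permutation test gave p = 0.1, its lower limit for 3 against 3 libraries. Without exosome replicate 1 the log2 change was -0.05. The RefSeq span of ACAA1, a peroxisomal thiolase, encloses MYD88 (chr13:22964844-23020138). The library kit keeps strand, but whether counting used it is not given in the sources used here. ACAA1 (listed as ACAA) was at 37.9 ± 1.18 and 36.0 ± 1.75 FPKM (log2 change -0.07), so reads shared between the 2 genes are a limit on the MYD88 value.

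TIRAP (ENSSSCG00000022413, chr9:53374559-53394172), the bridging adaptor of TLR4 and TLR2, was at 8.83, 8.29 and 7.57 FPKM in control and 5.10, 7.36 and 8.40 in exosome libraries. Exosome replicate 1 was the lowest of all 6 libraries, while exosome replicate 3 was the second highest. The log2 change was -0.24 (SE 0.15, 95% interval -0.59 to 0.12; adjusted p = 0.557). Without exosome replicate 1 it was -0.06, and without replicate 1 of both groups it was -0.01, so the size of the difference rested on that library. The ratio of MYD88 to TIRAP was 6.12 ± 0.494 in control and 7.04 ± 1.56 in exosome libraries (two-sided exact permutation p = 0.6), with exosome replicate 1 at 8.78.

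NFKBIA (ENSSSCG00000001952, chr7:64508119-64510754), the inhibitor that is destroyed and remade in each round of NF-kB activation, was at 99.1, 94.7 and 92.0 FPKM in control and 105, 113 and 92.3 in exosome libraries. Exosome replicates 1 and 2 lay above every control library, and exosome replicate 3 lay among them. The log2 change was 0.11 (SE 0.08, 95% interval -0.06 to 0.29; adjusted p = 0.564), 0.19 without exosome replicate 3 and 0.05 without exosome replicate 2. A non-coding RNA, LOC110261573, overlaps 1 end of the NFKBIA span in RefSeq and was not analysed here.

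RELA is the NF-kB subunit that NFKBIA holds in the cytoplasm. Relative to RELA, NFKBIA was higher in every exosome library than in any control library. In exosome replicate 3, NFKBIA itself (92.3 FPKM) lay among the controls and RELA (62.8 FPKM) was at its lowest. The ratio of NFKBIA to RELA was 1.45, 1.38 and 1.33 in control and 1.63, 1.58 and 1.47 in exosome libraries (two-sided exact permutation p = 0.1, again the lower limit; 0.6 with Benjamini-Hochberg adjustment over the 6 ratios computed between genes). These ratios were chosen after the values had been seen. RELA itself was at 68.4, 68.6 and 69.0 FPKM in control and 64.7, 71.5 and 62.8 in exosome libraries, which lay on both sides of the controls.

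NFKBIB (ENSSSCG00000026904, chr6:47703644-47712661), which also retains NF-kB in the cytoplasm, was at 60.0, 51.7 and 52.5 FPKM in control and 53.7, 59.4 and 67.5 in exosome libraries. The groups overlapped through control replicate 1, the second highest library of all. The log2 change was 0.13 (SE 0.09, 95% interval -0.08 to 0.35; adjusted p = 0.584). It was 0.05 without exosome replicate 3 and 0.21 without exosome replicate 1. The ratio of NFKBIA to NFKBIB was 1.75 ± 0.0907 in control and 1.74 ± 0.326 in exosome libraries, so the spread between exosome libraries was wider.

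NFKBIZ (ENSSSCG00000011951, chr13:157261419-157273119) was at 7.53, 7.22 and 7.23 FPKM in control and 9.66, 7.54 and 9.41 in exosome libraries. The control libraries were tight, exosome replicates 1 and 3 stood above them, and exosome replicate 2 was level with the highest control. The log2 change was 0.24 (SE 0.09, 95% interval 0.02 to 0.46; unadjusted p = 0.0366 and adjusted p = 0.370 in limma). Without exosome replicate 2 the log2 change was 0.34 and the adjusted p in limma 0.0532, when 297 of all genes passed. The unadjusted p in limma rose to 0.122 without exosome replicate 1 and to 0.108 without exosome replicate 3. It also missed 0.05 without control replicate 1, 2 or 3, at 0.0590, 0.0883 and 0.0867.

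The 3 inhibitors did not share a pattern over the libraries. NFKBIA was highest in exosome replicate 2, NFKBIB in exosome replicate 3 and NFKBIZ in exosome replicate 1. The ratio of NFKBIA to NFKBIZ was 13.0 ± 0.234 in control and ran from 9.82 to 15.0 in exosome libraries, on both sides of the control range. Across the 6 libraries of both groups, log2(FPKM + 1) of NFKBIA and NFKBIZ had a Pearson r of 0.08 and a Spearman rho of 0.43. Among the 15 pairs of the 6 genes, MYD88 and TIRAP had the highest r (0.89, rho 0.77), and MYD88 and NFKBIZ the lowest (-0.79, rho -0.71). These are descriptions over 6 libraries that share group and unknown depth.

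**Figure D2:**
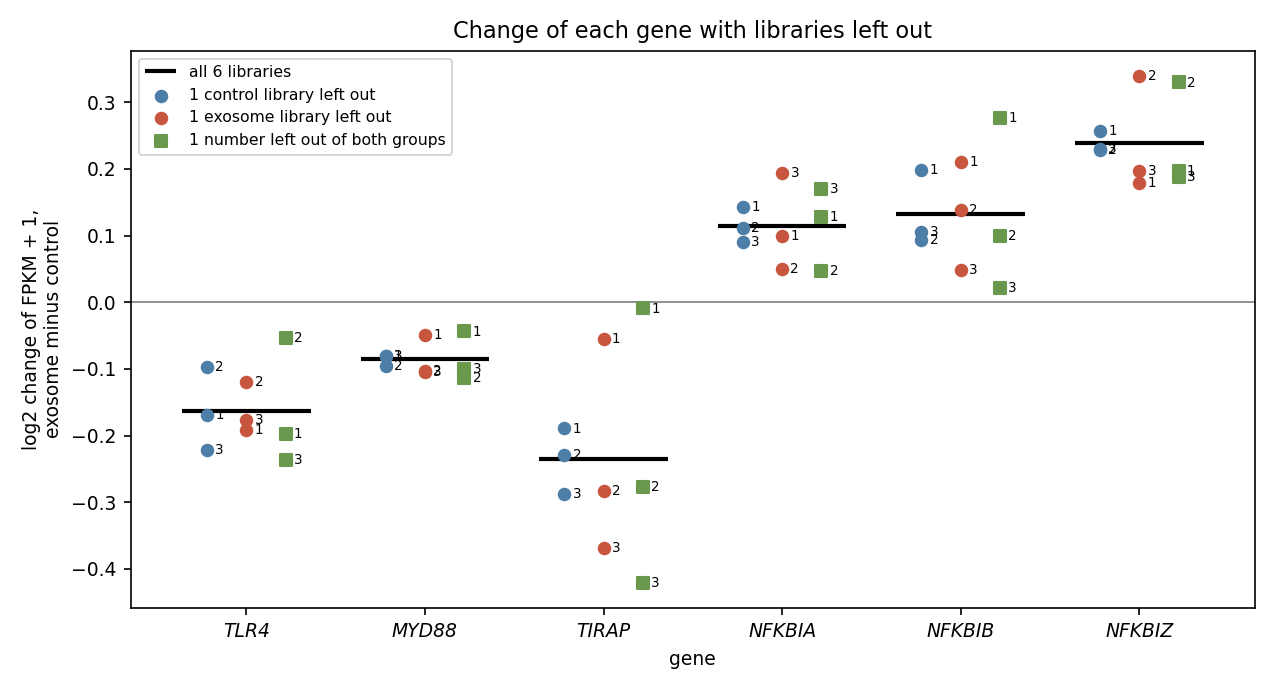
Log2 change of FPKM + 1, exosome minus control (y axis), of each described gene (x axis) with all 6 libraries (black bar) and with libraries left out (points, numbered by the replicate left out). TLR4, MYD88 and TIRAP stay below 0 and the 3 inhibitors above 0 in these fits, while TIRAP moves from -0.42 to -0.01 and NFKBIB from 0.02 to 0.28.

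TLR4, MYD88 and TIRAP had negative and the 3 inhibitors positive log2 changes, with medians of -0.16 and 0.13. The median of the 6 was 0.01 and that of all genes tested -0.0023, and the median size of the change regardless of sign was 0.15 for the 6 and 0.08 for all genes tested. The 6 genes were chosen with earlier results of these data known, so nothing is concluded from their larger median size. The other members of the inhibitor family that are named here lay nearer 0, and each of them took the opposite sign in some fits with libraries left out. BCL3, a nuclear co-regulator of NF-kB, was at a log2 change of -0.10, NFKBIE, another cytoplasmic inhibitor, at -0.04, and NFKBID, a nuclear relative of NFKBIZ, at 0.01. With NFKBIL1 included, 0 of these 4 had an unadjusted p under 0.05 in limma, beside 12.6% of all genes tested, and the median of the 4 was -0.02.

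Of 60 other signalling genes (receptors, adaptors, relay proteins, kinases, NF-kB subunits, inhibitor relatives and negative regulators), 0 had an unadjusted p under 0.05 in limma, beside 12.6% of all genes tested, and 0 passed after adjustment. That count was 7 without exosome replicate 2 (11.7%, beside 22.1% of all genes). Among the 7 were HSP90B1 and UBE2N (higher) and RIPK1, RBCK1, RELA and IL1R1 (lower). It was 2 (3.33%) without exosome replicate 3 or control replicate 1 (beside 12% and 9.97% of all genes). Without control replicate 3 it was 1 (1.67%, beside 8.2%). In the other alternatives it ran from 0 to 5, the 5 being without replicate 2 of both groups (8.33%, beside 15%). With all libraries, log2 changes of the 60 genes ran from -0.22 to 0.21 with a median of 0.01. Of 6 other receptor-side genes, HSP90B1, the chaperone that folds Toll-like receptors, had the smallest p (log2 change 0.13, adjusted p = 0.403), and TLR3, the sensor of double-stranded RNA, was at -0.04. TICAM2, the adaptor of the alternative TLR4 branch, was listed at 1.01 to 1.10 FPKM in control and 1.11 to 1.32 in exosome libraries. Another 11 receptors and partners, TLR2 and TLR5 among them, were not analysed here.

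Of 16 IRAK, TRAF and TAK1 genes, 14 had a positive log2 change, with a median of 0.07, where the median of all genes tested was -0.0023. The share of positive changes over all genes was not computed. The 16 genes were measured in the same 6 libraries, so their signs are not independent. None of them was under the threshold of 0.05 in limma with all libraries. UBE2N was under it without exosome replicate 2 or control replicate 1 and with quantile normalization, PELI2 without exosome replicate 3, and both PELI2 and TIFA with no intensity trend. The smallest p in that list were those of UBE2N, the ubiquitin-conjugating partner of TRAF6 (log2 change 0.10, with an identifier that the reference table gives to UBE2NL), PELI2, a ubiquitin ligase of IRAK proteins (0.18), and TIFA, a TRAF6 activator (0.15). Of 11 kinase-complex genes, 7 were negative, led by RIPK1 (-0.15) and RBCK1, a subunit of the linear ubiquitin ligase (-0.22), while MAP3K8 was at 0.15. RBCK1 was at -0.07 without exosome replicate 1 and -0.35 without exosome replicate 2, and MAP3K8 at 0.08 without control replicate 3 and 0.25 without control replicate 1. The NF-kB subunits REL, RELA and NFKB2 were at -0.10, -0.05 and 0.04. Of 16 negative regulators, 9 were negative, with SIGIRR, an inhibitory receptor with a TIR domain, at -0.19, PDLIM2 at -0.10 and ITCH at 0.14. The interleukin-1 receptor chain IL1R1, which also signals through MYD88, was at -0.16 and its partner IL1RAP at 0.07.

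**Figure D3:**
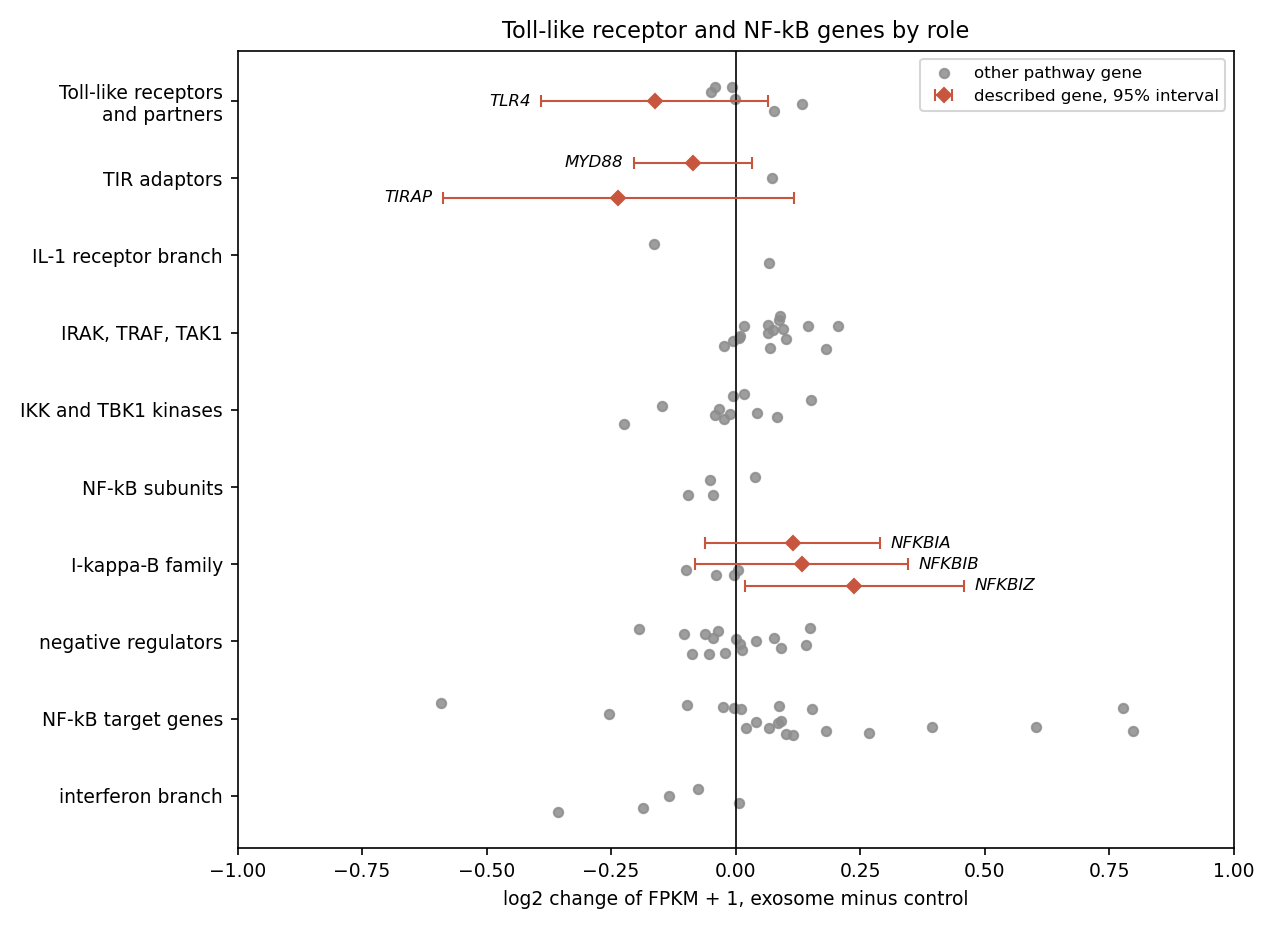
Log2 change of FPKM + 1, exosome minus control (x axis), for genes of the pathway grouped by role (y axis). Grey points are the 86 other genes, and red diamonds with 95% intervals are the 6 described genes, of which the NFKBIZ interval alone lies on 1 side of 0 (0.02 to 0.46).

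Downstream, 21 NF-kB target genes were tested, with a median log2 change of 0.09 and 0 past adjustment. At an unadjusted p under 0.05 in limma the exosome group was higher for 3 and lower for 1. These were 19% of the list, beside 12.6% of all genes tested (5.06% higher and 7.5% lower). The list was chosen with earlier results of these data known. The neutrophil chemokines CXCL8 and CXCL2 were at log2 changes of 0.78 and 0.60 and the alarm cytokine IL1A, named after its values were seen, at 0.39, whereas PTGS2, the inducible cyclooxygenase, was at -0.59. These 4 genes passed an adjusted p of 0.05 in limma only when exosome replicate 2 was left out, PTGS2 also without replicate 2 of both groups. In those fits 5 and 1 of the 21 target genes passed, when 297 and 58 of all genes tested did. Without replicate 3 of both groups, CXCL8, CXCL2 and IL1A were not under an unadjusted p of 0.05 in limma, while PTGS2 still was. Exosome replicate 2 was the exosome library nearest the controls for CXCL8 (346 FPKM against 569 and 485) and for NFKBIZ. Among 5 genes of the interferon branch IRF9 was at -0.36, the 1 gene there under an unadjusted p of 0.05 in limma (20%, beside 12.6% of all genes tested). IRF9 passed adjustment without exosome replicate 2, where 297 of all genes tested did, and missed the unadjusted threshold without replicate 3 of both groups. IRF7 and IRF5 were at -0.19 and -0.13. Over the 86 pathway genes other than the 6, 3 were higher and 2 lower at that threshold (5.81%, beside 12.6% of all genes tested). That count of 5 became 15 without exosome replicate 2 (17.4%, beside 22.1% of all genes tested), 10 without exosome replicate 3 (11.6%, beside 12% of all genes) and 8 without control replicate 1 (9.3%, beside 9.97%). It was 13 without replicate 2 of both groups (15.1%, beside 15%) and 6 without replicate 1 of both groups (6.98%, beside 6%).

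The genes whose pattern over the 6 libraries was most like each described gene were taken from 3968 genes by Pearson r of log2(FPKM + 1), with no test. The highest r of so many genes over 6 libraries would be high through selection even for unrelated genes. Nothing is concluded from them. NFKBIZ was matched by HDDC2, HSP90B1 and NUP62CL, with r from 0.996 to 0.997 and rho of 0.89. HSP90B1 was at 408, 399 and 395 FPKM in control and 459, 403 and 458 in exosome libraries, again with exosome replicate 2 level with the control. NFKBIA was matched by ICAM-1, an adhesion receptor for leukocytes (r 0.976, rho 0.94), by Metazoa_SRP, an annotated signal recognition particle RNA (0.965), and by FOXM1, a cell cycle transcription factor (0.958). Pearson r does not measure the size of a change. Metazoa_SRP was at 2.94, 2.12 and 1.04 FPKM in control and 21.0, 25.9 and 0.523 in exosome libraries. ICAM-1 was at 55.3, 53.9 and 50.0 FPKM in control and 58.8, 64.4 and 48.8 in exosome libraries, the same order of exosome libraries as NFKBIA.

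MYD88 was matched by FAAP100, OCEL1 and GSTZ1 (r from 0.988 to 0.998), each lowest in exosome replicate 1. TIRAP was matched by POLL, a DNA repair polymerase, NELFB, a subunit of the negative elongation factor, and the unnamed ENSSSCG00000003542 (r from 0.985 to 0.998), also lowest in exosome replicate 1. NFKBIB was matched by the unnamed ENSSSCG00000029120, SRSF12 and MPV17L2 (r from 0.976 to 0.988), each highest in exosome replicate 3. TLR4 was matched by the unnamed ENSSSCG00000022487 and ENSSSCG00000025576 and by MAL, a membrane proteolipid (r from 0.983 to 0.990), each highest in control replicate 2 and lowest in exosome replicate 2.

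**Figure D4:**
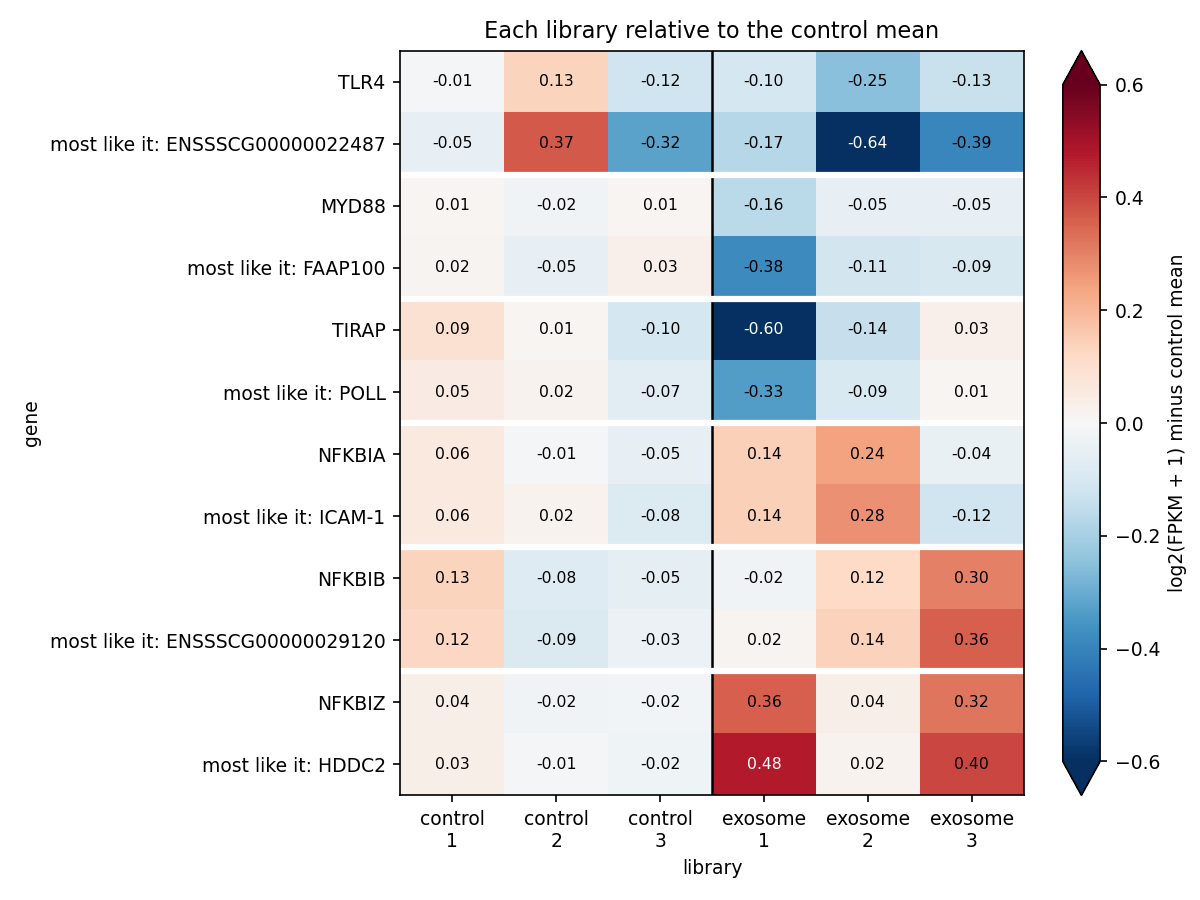
Log2(FPKM + 1) of each described gene and of the gene most like it, minus the mean of the 3 control libraries, in every library (columns), with blue for lower and red for higher. NFKBIZ is at 0.36, 0.04 and 0.32 in exosome replicates 1, 2 and 3, NFKBIA at 0.14, 0.24 and -0.04, and TIRAP at -0.60, -0.14 and 0.03.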

How the data were processed

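The deposited FPKM values were made by the authors with TopHat and Cufflinks on Sscrofa11.1 after demultiplexing with bcl2fastq 1.8.4, per the submitters' processing notes. The file header names no unit, which was taken from that tool and from the values. The sources used here name no other version, no annotation release and no filter. The lowest deposited value was 0.0882 FPKM. Depth could not be recovered: between any 2 libraries, at most 11 of the 500 lowest genes shared a ratio to 4 significant digits. No counting intervals are therefore given, and no count model was used.

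Columns were matched to samples by title. Values were tested as log2(FPKM + 1), which understates changes of low genes such as TLR4, for the 10846 genes that averaged 1 FPKM or more over the 6 libraries. The two-sided moderated test of limma 3.58.1 (R 4.3.3) was used with an intensity trend and no replicate block. Its p-values were adjusted over these genes by Benjamini-Hochberg. The fit was also run on simulated data that drew each gene independently, so that run does not cover scatter shared by the genes of a library. Single values were compared by exact permutation with scipy 1.17.1, and figures used matplotlib 3.10.9.

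The genes described and the pathway lists were chosen with earlier results of these data known. Of 168 list symbols 108 were found, 14 of them through the reference symbol of the identifier, and DEFB1 was left out because it matched ambiguously. Named genes were the 6 genes, the 3 of each list with the smallest p, the 2 of each list with the highest mean (named only where a result turned on them), and the 3 genes most like each described gene (mean of at least 5 FPKM, SD of at least 0.1). Coordinates are RefSeq's for Sscrofa11.1, matched by symbol. No sequences are given. Alternatives covered pseudocounts, filters, scalings, variance models, the replicate block and libraries left out.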

Additional observations from a re-analysis of the deposited data

How the results depend on the processing

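TLR4, MYD88, TIRAP, NFKBIA, NFKBIB and NFKBIZ kept the sign of their log2 change in every alternative run (17 for TLR4, which the filter at 5 FPKM left out, and 18 for each of the others), and none passed an adjusted p of 0.05 in limma in any of them. With libraries left out, the number of all genes passing ran from 0 to 297 (297 when exosome replicate 2 was dropped, 58 when both replicates 2 were, 1 when control replicate 3 or both replicates 3 were). The number of the 6 genes at an unadjusted p under 0.05 in limma ran from 0 to 2, and that of the 86 other pathway genes from 5 to 15. In the same fits 6% to 22.1% of all genes tested were under that threshold. The count of the 86 was 8 with quantile normalization (9.3%, beside 12.5% of all genes) and 8 with the replicate block (9.3%, beside 12.3%), against 5. The block left the count of the 6 genes at 1. Whether replicate numbers mark a pairing could not be settled. Deviations of same-numbered libraries correlated at 0.16, 0.14 and -0.07. Control replicates 1 and 2 correlated best with the exosome library of the same number, and control replicate 3 with exosome replicate 2 (0.17). Deviations were taken from the mean of each group of 3 libraries, so these correlations are not independent of each other. Small log2 changes took the opposite sign when libraries were left out, with ranges of -0.051 to 0.19 for LY96, -0.089 to 0.0074 for TLR3, -0.058 to 0.12 for NFKB2, -0.25 to 0.0046 for BCL3, -0.13 to 0.035 for NFKBIE and -0.059 to 0.063 for NFKBID. NFKBID was at -7.7e-05 with quantile normalization. The causes were not tested. Depth is unknown, so counting error behind the low TLR4 values cannot be given.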
